A study of Capra hircus with 29 samples.

Results

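Histone methylation enzymes are the proteins that add methyl groups to histones or take them off, and their transcripts were followed in goat oocytes. The 10 genes described here, SETD2, SETDB1, EHMT1, EHMT2, KDM1A, KDM1B, EZH2, EED, SUZ12 and KDM5B, are enzymes of this kind or partner subunits of one and were chosen by gene symbol. Each symbol matched 1 Ensembl gene, so that 10 of the 21343 genes in the table were members. Levels are given as FPKM, a measure scaled by the length of the transcript and by the mapped fragments of the sample, so that genes can be set in order. How evenly reads covered each transcript was not examined, so an order of genes is an order by FPKM only.

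RNA-seq was made from oocytes of Ji'ning grey goats of a high fertility population, described as having more than 3 kids per birth, and of a low fertility population with fewer than 2. These limits are given as in the design text, and the study's methods word them differently. In each population the follicles that the oocytes came from were divided by size. The high fertility groups were HLO from large follicles (n = 5), HMO from medium follicles (n = 5) and HSO from small follicles (n = 4), and the low fertility groups were LLO, LMO and LSO (n = 5 each), which gave 29 samples in 6 groups. Oocytes were pooled by stage and then divided into samples of a few cells, and the goats behind each sample, and their ages, are not recorded in the labels, so the p-values measure the spread between these samples. In such pooled samples, fewer oocytes contributing RNA and less RNA per oocyte cannot be told apart.

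The label oocyte was checked against marker genes. Of 12 oocyte markers, 10 had a mean above 0.5 FPKM, led by ZP3 of the zona pellucida with a mean of 1406 FPKM. GDF9 and BMP15, growth factors secreted by the oocyte, lay above 0.5 FPKM in 29 of 29 samples. The oocyte markers with a lower mean were NOBOX (0.379 FPKM, above 0.5 in 8 samples) and NLRP5 (0.303 FPKM, above 0.5 in 5). The 11 granulosa cell markers that matched a gene summed to 6.08 to 39.8 FPKM per sample (median 19.5). Most of that was STAR, a cholesterol carrier, with a mean of 18.8 FPKM, and without STAR the sum was 0.643 to 8.54 FPKM. Of the granulosa markers, AMH and HSD17B1 were listed at 0 in every sample, and FSHR did not pass 0.283 FPKM, while GJA1 was above 0.5 FPKM in 19 of 29 samples (up to 4.23), INHBA in 10 (up to 5.21) and FST in 5 (up to 1.54). The theca markers LHCGR and INSL3 summed to at most 0.046 FPKM, the leukocyte markers to at most 0.672 FPKM, led by CD68, and the erythrocyte marker ALAS2 reached 0.464 FPKM.

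Methylation of histone tails is written by methyltransferases and erased by demethylases, and the effect depends on the residue: H3K4 methylation marks active promoters, H3K36 methylation is laid down along transcribed gene bodies, and H3K9 and H3K27 methylation go with silencing. These marks are set in the growing oocyte, which does not divide, and in mice the pattern of H3K36 and H3K4 methylation guides where the oocyte gains DNA methylation. KDM1B is known there as the H3K4 demethylase needed to set up maternal imprints, SETD2 as the writer of H3K36 trimethylation, and the Polycomb repressive complex PRC2 as the writer of H3K27 methylation.

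By mean over the 29 samples the order was KDM1A, EED, EZH2, SUZ12, SETDB1, KDM1B, EHMT2, KDM5B, SETD2 and EHMT1. KDM1A lay above 89.4% of the genes of the table by mean FPKM, SUZ12 above 80.2%, KDM1B above 69.3%, EHMT2 above 56.4%, KDM5B above 52.6%, SETD2 above 39.0% and EHMT1 above 32.3%. There were 4 members, KDM1A, EED, EZH2 and SUZ12, above 1 FPKM in 29 of 29 samples, and SETDB1 exceeded 0.5 FPKM in 26 samples and KDM1B in 28. Of the remaining 4, EHMT2 was above 0.5 FPKM in 4 samples, KDM5B in 1 and SETD2 and EHMT1 in 0.

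**Figure D1:**
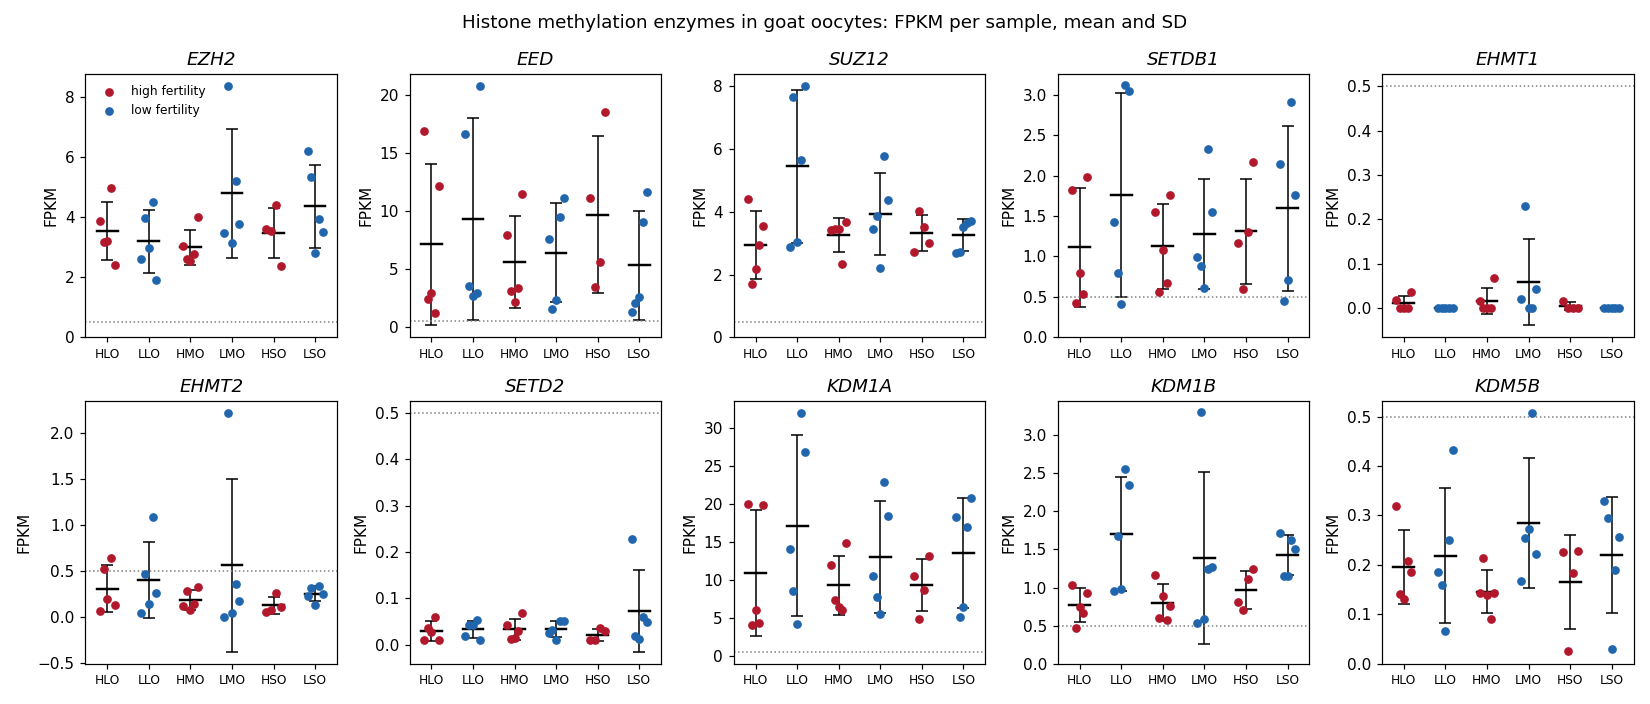
FPKM of the 10 histone methylation genes in each of 29 goat oocyte samples, by group on the x axis, with red points for high fertility, blue points for low fertility, a bar for the mean, whiskers for the SD and a dotted line at 0.5 FPKM. The 2 fertility groups of a stage overlap for every gene, and KDM1B has its highest values, 2.34, 2.55 and 3.30 FPKM, in low fertility samples.

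Neighbours in this order were often not separate. KDM1A was higher than EED in 26 of 29 samples, while EED was higher than EZH2 in 16 and EZH2 higher than SUZ12 in 13, so the means of EZH2 and SUZ12, whose ratio was 1.01, did not differ beyond their spread. SUZ12 was higher than SETDB1 in 29 of 29 samples. SETDB1 was higher than KDM1B in 20 samples, KDM1B higher than EHMT2 in 28, EHMT2 higher than KDM5B in 15, KDM5B higher than SETD2 in 29 and SETD2 higher than EHMT1 in 25. Complete steps were thus seen below SUZ12 and below KDM5B.

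PRC2 is built around EZH2, its catalytic subunit, with EED, which binds the H3K27 methyl mark and stimulates the enzyme, and SUZ12, the scaffold. EZH2 averaged 3.73 ± 1.34 FPKM (SD, n = 29), with a range of 1.92 in LLO replicate 5 to 8.37 in LMO replicate 2. By group its FPKM were 2.41 to 4.98 in HLO, 1.92 to 4.51 in LLO, 2.55 to 4.0 in HMO, 3.14 to 8.37 in LMO, 2.37 to 4.41 in HSO and 2.82 to 6.21 in LSO. These ranges overlapped in each pair of groups, and EZH2 was among the least variable members, with a coefficient of variation of 0.357.

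SUZ12 averaged 3.71 ± 1.45 FPKM (SD, n = 29). In LLO it was 2.89, 7.66, 3.04, 5.66 and 8.01 FPKM in replicates 1 to 5, and in HLO it was 4.40, 1.69, 2.17, 2.94 and 3.56 FPKM. LLO replicates 2, 4 and 5 stood above every HLO sample, while LLO replicates 1 and 3 lay within the HLO range. In the other groups SUZ12 was 2.33 to 3.66 FPKM in HMO, 2.22 to 5.77 in LMO, 2.73 to 4.03 in HSO and 2.70 to 3.71 in LSO, with overlap at both stages.

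EED was the most spread of the PRC2 subunits, at 7.15 ± 5.78 FPKM (SD, n = 29). In HLO it was 16.9, 2.45, 2.90, 1.25 and 12.1 FPKM in replicates 1 to 5, and in LLO 16.6, 3.52, 2.67, 2.98 and 20.7 FPKM. Both groups held samples at 3.52 FPKM or less and samples at 12.1 FPKM or more, with no values between. In HMO it was 7.91, 3.07, 2.17, 3.37 and 11.4 FPKM, and in LMO 7.54, 1.59, 2.32, 9.44 and 11.1 FPKM. In HSO it was 11.2, 3.42, 5.60 and 18.5 FPKM in replicates 1, 3, 4 and 5, and in LSO 1.28, 2.10, 2.56, 9.04 and 11.6 FPKM in replicates 1 to 5. Replicate 5 was high in all 6 groups, replicate 1 in 5 of them, and LSO replicate 1 was the exception. Replicate 4 was high in LMO and LSO as well, at 9.44 and 9.04 FPKM.

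Because of that spread, the ratio of the subunits within a sample varied. EED was 0.189 times EZH2 in LMO replicate 2 and 10.8 times EZH2 in LLO replicate 5, with a median of 1.21 over 29 samples. SUZ12 to EZH2 had a median of 1.06 and ran from 0.434 in LSO replicate 1 to 4.17 in LLO replicate 5. The ratio of SUZ12 to EZH2 therefore stayed in a narrower range than that of EED to EZH2.

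Of the H3K9 methyltransferases among the members, SETDB1 had the highest mean. It is the enzyme that silences retroelements together with the corepressor TRIM28. SETDB1 averaged 1.36 ± 0.815 FPKM (SD, n = 29). In HLO it was 1.82, 0.430, 0.800, 0.535 and 1.99 FPKM in replicates 1 to 5, and in LLO 1.42, 0.791, 0.417, 3.12 and 3.04 FPKM. The LLO values enclosed those of HLO. In the medium and small stages SETDB1 was 0.559 to 1.76 FPKM in HMO, 0.609 to 2.33 in LMO, 0.603 to 2.16 in HSO and 0.452 to 2.91 in LSO, again with overlap.

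EHMT1 and EHMT2, also called GLP and G9a, form the heterodimer that writes H3K9 mono- and dimethylation. EHMT2 was 0.311 ± 0.430 FPKM (SD, n = 29), and its 4 samples above 0.5 FPKM were HLO replicate 2 at 0.516, HLO replicate 4 at 0.642, LLO replicate 4 at 1.08 and LMO replicate 2 at 2.22 FPKM. In the small follicle groups it was 0.054 to 0.255 FPKM in HSO and 0.129 to 0.337 FPKM in LSO, below that limit throughout. EHMT1 was listed at 0 in 21 of 29 samples, including every LLO and LSO sample, and its highest value was 0.229 FPKM, again in LMO replicate 2. LMO replicate 2 also had the highest EZH2 and KDM1B of the 29 samples, and the smallest sum of FPKM over all genes, 222697, where the samples reached up to 490048.

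SETD2 was detected in every sample, but at 0.00953 to 0.227 FPKM (median 0.030), the highest value being that of LSO replicate 1. How many reads lie behind such values cannot be read from FPKM, so whether samples differ in SETD2 cannot be judged here. KDM5B, an H3K4 demethylase of the JmjC type, ranged from 0.025 in HSO replicate 3 to 0.508 in LMO replicate 4, with a median of 0.189 FPKM. By group it was 0.132 to 0.318 FPKM in HLO, 0.067 to 0.432 in LLO, 0.091 to 0.214 in HMO, 0.168 to 0.508 in LMO, 0.025 to 0.228 in HSO and 0.031 to 0.329 in LSO. Every pair of groups overlapped, and a single sample passed 0.5 FPKM.

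KDM1A and KDM1B, also known as LSD1 and LSD2, are the flavin-dependent H3K4 demethylases. KDM1A was the most abundant member, at 12.3 ± 7.50 FPKM (SD, n = 29). In HLO it was 19.9, 4.05, 5.98, 4.34 and 19.8 FPKM in replicates 1 to 5, and in LLO 14.0, 8.56, 4.20, 32.0 and 26.8 FPKM. LLO replicates 4 and 5 were above every HLO sample, and the rest of the 2 groups overlapped. In HMO it was 11.9, 7.34, 6.41, 5.98 and 14.8 FPKM, and in LMO 10.5, 7.72, 5.46, 22.9 and 18.3 FPKM. In HSO it was 10.5, 4.87, 8.68 and 13.1 FPKM in replicates 1, 3, 4 and 5, and in LSO 18.2, 5.09, 6.42, 16.9 and 20.8 FPKM in replicates 1 to 5. Low values came in both populations, and the highest value of each stage came from a low fertility sample.

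KDM1B averaged 1.18 ± 0.649 FPKM (SD, n = 29), and KDM1A exceeded it in 29 of 29 samples, with a median ratio of 10.4 and a range of 2.34 in LMO replicate 2 to 21.3 in HLO replicate 5. In HLO, KDM1B was 1.03, 0.468, 0.748, 0.672 and 0.932 FPKM in replicates 1 to 5, and in LLO it was 0.948, 1.68, 0.978, 2.55 and 2.34 FPKM. LLO replicates 2, 4 and 5 were above every HLO sample, and LLO replicates 1 and 3 fell below HLO replicate 1 only. Of all 29 samples LLO replicate 2 had the fewest genes above 0.5 FPKM, 6646, and LLO replicate 4 the most, 8689, and LLO replicate 4 had the smallest sum over the mitochondrial coding genes, 11.2 FPKM. The sums of FPKM over all genes were 347806, 419976 and 386193 in LLO replicates 2, 4 and 5 and 376899 to 442181 in HLO. The part of library quality in the KDM1B values was not tested. In HMO it was 1.17, 0.595, 0.892, 0.578 and 0.759 FPKM, and in LMO 0.529, 3.30, 0.588, 1.24 and 1.27 FPKM. LMO held both the highest and the lowest of these samples, so that the groups of medium follicles overlapped widely. In HSO it was 0.807, 0.711, 1.12 and 1.25 FPKM in replicates 1, 3, 4 and 5, and in LSO 1.72, 1.15, 1.16, 1.62 and 1.51 FPKM in replicates 1 to 5. In small follicles LSO replicates 1, 4 and 5 were above every HSO sample, and HSO replicate 5 was above LSO replicates 2 and 3.

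The study set high against low fertility at each follicle stage to look for differences in oocyte transcripts, and the same comparison was fitted here over all genes. Fold changes are high minus low fertility on the scale of log2(FPKM + 1), which understates the change of low genes, and testing was limited to genes that exceeded 0.5 FPKM in 4 or more samples of the comparison. By this filter 6 members were tested at each stage (SETDB1, KDM1A, KDM1B, EZH2, EED and SUZ12) and 7 over all samples (EHMT2 in addition), and SETD2, EHMT1 and KDM5B were not tested in any comparison.

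In large follicles KDM1B was lower in high fertility oocytes, with a mean of 0.769 ± 0.220 FPKM in HLO (SD, n = 5) and 1.70 ± 0.745 FPKM in LLO (SD, n = 5). Its log2 fold change was -0.57 (SE 0.26), with an unadjusted p = 0.0432 and an adjusted p = 0.828 in limma's moderated test, so the difference did not pass the adjustment. The other 5 members tested had log2 fold changes from -0.66 (SUZ12) to 0.12 (EZH2). With weights for the quality of each sample, EED had -1.16 in place of -0.37, KDM1A -1.09 in place of -0.61 and SUZ12 -0.82 (unadjusted p = 0.0366, adjusted p = 0.299 in limma). By an adjusted p under 0.05, 0 of 6 members passed beside 0% of 8328 genes, and by the unadjusted p 1 of 6 passed beside 4.14%. No member had HLO and LLO samples that did not overlap, which held for 0.432% of the genes tested. The call of KDM1B depended on single samples. Its unadjusted p from limma was 0.0488 when HLO replicate 1 was left out, 0.026 when LLO replicate 1 was and 0.0243 when LLO replicate 3 was, but 0.0549 to 0.105 when any of the other 7 was, HLO replicates 2, 3, 4 and 5 and LLO replicates 2, 4 and 5. The summed granulosa markers were 18.8 to 31.0 FPKM in HLO (median 27.1) and 8.85 to 18.3 FPKM in LLO (median 13.3) with no overlap, or 1.5 and 1.02 FPKM by the median without STAR. STAR itself had a log2 fold change of 0.96 (unadjusted p = 0.0429, adjusted p = 0.828 in limma), and the part of these markers in the levels of KDM1B was not tested.

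In medium follicles 0 of 6 members passed an adjusted p in limma, beside 0.0715% of 8390 genes, and 0 of 6 passed the unadjusted p, beside 8.67%. The 6 genes behind that share became 160 without HMO replicate 2, 0 to 4 without any other single sample and 1011 with weights for the quality of each sample, and the count of members past the adjusted p stayed at 0. KDM1B averaged 0.798 ± 0.243 FPKM in HMO and 1.38 ± 1.12 FPKM in LMO (SD, n = 5 each), and EZH2 3.0 ± 0.593 and 4.80 ± 2.15 FPKM. In both genes the LMO mean was raised by replicate 2. The log2 fold changes of the 6 members lay between -0.48 and -0.09. With weights, KDM1A had -1.04 (unadjusted p = 0.00676, adjusted p = 0.0522 in limma) in place of -0.35. EED then had -1.0 (unadjusted p = 0.0178, adjusted p = 0.0757 in limma) in place of -0.11. Of the members tested, 0 had groups that did not overlap, beside 1.7% of genes. The summed granulosa markers were 9.98 to 16.4 FPKM in HMO (median 15.5) and 21.3 to 39.8 FPKM in LMO (median 27.4) with no overlap, or 1.71 and 1.49 FPKM by the median without STAR. With STAR this order was the opposite of that in large follicles, while without STAR the median was higher in high fertility at both stages. STAR itself had a log2 fold change of -1.04 (unadjusted p = 0.00509, adjusted p = 0.265 in limma), and the part of these markers in the levels of the members was not tested.

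In small follicles 0 of 6 members passed an adjusted p in limma, beside 0.0119% of 8376 genes, and 0 of 6 passed the unadjusted p, beside 4.41%. KDM1B averaged 0.970 ± 0.252 FPKM in HSO (SD, n = 4) and 1.43 ± 0.263 FPKM in LSO (SD, n = 5). EED had the opposite order, with 9.67 ± 6.74 FPKM in HSO and 5.32 ± 4.69 FPKM in LSO, and the spread within each group was of the size of the difference. The log2 fold changes of the 6 members lay between -0.38 (KDM1A) and 0.86 (EED), and 0 members had groups that did not overlap, beside 2.05% of genes. The summed granulosa markers had medians of 25.9 FPKM in HSO and 23.3 FPKM in LSO, or 1.25 and 4.56 FPKM without STAR.

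Over all stages, with the stage as a covariate, KDM1B was again the member with the smallest p. It was 0.468 to 1.25 FPKM (median 0.783) in the 14 high fertility samples and 0.529 to 3.30 FPKM (median 1.27) in the 15 low fertility samples. Most low fertility samples lay above the median of the high fertility samples, but the ranges overlapped. Its log2 fold change was -0.40 (SE 0.13), with an unadjusted p = 0.00442 and an adjusted p = 0.423 in limma, so it did not pass the adjustment here either. By the adjusted p 0 of 7 members passed beside 0.0103% of 9692 genes, and by the unadjusted p 1 of 7 beside 9.99%. That count was 2 of 7 after quantile normalization, where KDM1A had an unadjusted limma p of 0.0388 in place of 0.140, and with the number of genes above 0.5 FPKM as a covariate (chosen after seeing the data), where it had 0.00746, and 5 of 7 with weights for the quality of each sample. Among the rest, log2 fold changes ran from -0.45 (KDM1A) to 0.10 (EED). With weights for the quality of each sample, 2 of 7 members passed the adjustment, KDM1A at a log2 fold change of -0.85 (adjusted p = 0.0415) and KDM1B at -0.33 (adjusted p = 0.0443), and 691 of 9692 genes then passed, with a median log2 fold change over all genes of -0.16 in place of -0.04. EED changed direction under these weights, to a log2 fold change of -0.62 (unadjusted p = 0.0491, adjusted p = 0.146 in limma), and 7 of 7 members were then negative. Without HLO replicate 1, HSO replicate 5 or LSO replicate 1, each left out alone, EED was also negative and so were 7 of 7 members. The adjusted p of KDM1B over the 9 alternative fits ran from 0.0443 to 0.549, and that of KDM1A from 0.0415 to 0.718.

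Most tested members had lower values in the high fertility groups. Negative fold changes were found for 5 of 6 members in large, 6 of 6 in medium and 4 of 6 in small follicles, beside 57.6%, 56.5% and 50.8% of all genes tested. The median log2 fold change of the members was -0.47, -0.24 and -0.18, beside -0.09, -0.07 and -0.01 over all genes. The counts of 5, 6 and 4 were the same after median-of-ratios scaling and after quantile normalization, but not under every setting. With a sample left out they were 4 to 5 in large, 4 to 6 in medium and 3 to 5 in small follicles, the lowest being without LLO replicate 5, without HMO replicate 2 or LMO replicate 4, and without LSO replicate 4. In small follicles the count was 5 with weights for the quality of each sample and 3 with the number of genes above 0.5 FPKM as a covariate, which was chosen after seeing the data. These members were tested because they were expressed above the filter, and they share their samples, so the counts are a description only.

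The stage of the follicle did not separate the members. For stage over both populations 0 of 7 members passed an adjusted p in limma's F-test, beside 0% of 9692 genes, and 0 of 7 passed the unadjusted p, beside 1.66%. KDM1B averaged 1.23 ± 0.712 FPKM in large (n = 10), 1.09 ± 0.827 in medium (n = 10) and 1.23 ± 0.342 FPKM in small follicles (n = 9). KDM1A averaged 14.0 ± 10.2, 11.1 ± 5.88 and 11.6 ± 5.94 FPKM over the same samples. For the interaction of fertility and stage 0 of 7 members passed an adjusted p, beside 0% of genes, and 0 of 7 passed the unadjusted p, beside 7.89%, so no difference between stages in the fertility contrast was shown for any member. The 0 genes past the adjusted p became 59 without HMO replicate 2, 12 without LLO replicate 4, 0 to 2 without any other single sample, 2 after median-of-ratios scaling or quantile normalization, 231 with weights for the quality of each sample and 52 with the number of genes above 0.5 FPKM as a covariate, with 0 members in each.

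Over the 29 samples the Pearson correlation of log2(FPKM + 1) between KDM1A and SETDB1 was 0.941 (Spearman 0.934), and without the 2 samples farthest from the median of KDM1A it was 0.922. KDM1A and EED had r = 0.670 (Spearman 0.674), and SETDB1 and EED r = 0.634 (Spearman 0.620). Without the 2 samples farthest from the median of KDM1A and of EED, respectively, these were 0.748 and 0.557. EED and EZH2, subunits of the same complex, had r = -0.417 (Spearman -0.360), and EED and SUZ12 r = 0.343 (Spearman 0.432). Without the 2 samples farthest from the median of EED these were -0.279 and 0.265. KDM1B and SUZ12 had r = 0.607 (Spearman 0.573), and 0.521 without the 2 samples farthest from the median of SUZ12. KDM1B and KDM1A had r = 0.535 (Spearman 0.610), which was 0.377 without the 2 samples farthest from the median of KDM1A. Over the 21 pairs of the 7 members tested the median r was 0.413, beside 0.143 over all pairs of the 9692 genes. The points of such a correlation share a library, and each library carries its own depth, RNA quality and oocytes.

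**Figure D2:**
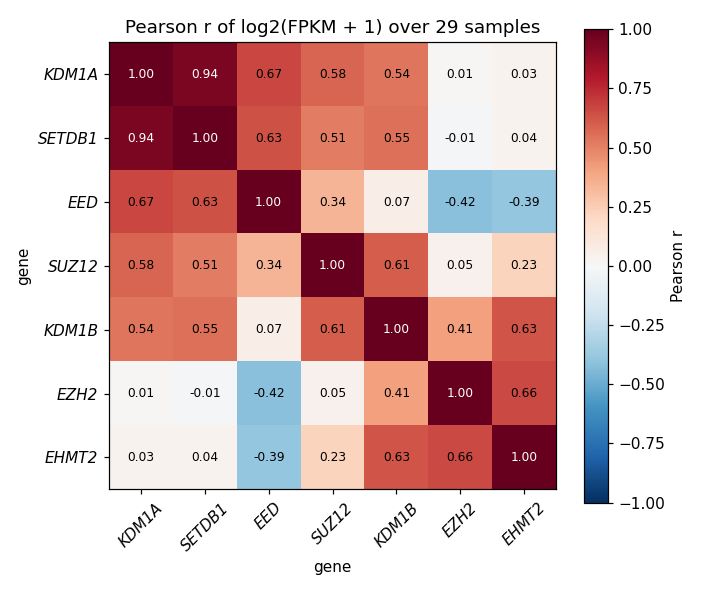
Pearson correlation of log2(FPKM + 1) over 29 oocyte samples for each pair of the 7 histone methylation genes that passed the filter, with genes on both axes and the colour scale running from -1 (blue) to 1 (red). KDM1A and SETDB1 have the highest value, 0.941, and EED and EZH2 the lowest, -0.417.

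After quantile normalization the correlation of KDM1A and SETDB1 was 0.854, that of KDM1A and EED 0.362 and that of EED and EZH2 -0.724. KDM1B and SUZ12 then had 0.610 and KDM1B and KDM1A 0.201, and the median over the 21 pairs was 0.201 beside 0.0004 over all pairs of genes. After removal of the 6 group means, KDM1A and SETDB1 had r = 0.947 and KDM1A and EED r = 0.728, so these correlations were present within groups. Of the few ratios computed, KDM1A to SETDB1 was the steadiest, with a median of 9.02 and a range of 5.79 to 13.1 over 29 samples. That restates the correlation of these genes and is not separate support for it.

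The levels of KDM1A, SETDB1 and EED followed the number of genes above 0.5 FPKM in a sample, which ran from 6646 to 8689. The Pearson correlation with that number was 0.815 for KDM1A (Spearman 0.826), 0.819 for SETDB1 (Spearman 0.853) and 0.598 for EED (Spearman 0.540), all over 29 samples. For KDM1B it was 0.282 (Spearman 0.458), for SUZ12 0.131 (Spearman 0.261) and for EZH2 0.098 (Spearman 0.118). Without the 2 samples farthest from the median number of genes, r was 0.853 for KDM1A, 0.831 for SETDB1, 0.608 for EED, 0.406 for KDM1B, 0.384 for SUZ12 and 0.101 for EZH2. The first principal component, the main axis of variation over the genes above the filter, held 39.0% of the variance. With the score on it, r was 0.835 for KDM1A, 0.830 for SETDB1 and 0.860 for EED. For KDM1B, SUZ12 and EZH2 it was 0.168, 0.253 and -0.250. No correlation over all genes was computed beside these values, so they are not shown to be particular to the members. What part library quality had in these levels was not tested.

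The samples also divided by the number they carry in the titles, which the labels do not explain. The labels do not join 2 with 3 or 1 with 5, so the division is a description only. In the 11 samples numbered 2 and 3, KDM1A was 4.05 to 8.56 FPKM (median 5.98), and in the 12 samples numbered 1 and 5 it was 10.5 to 26.8 FPKM (median 16.5), with no overlap. The 6 samples numbered 4 covered both, at 4.34 to 32.0 FPKM, and among them the high fertility samples were at 4.34 to 8.68 and the low fertility samples at 16.9 to 32.0 FPKM. EED was 1.59 to 3.52 FPKM (median 2.56) in the samples numbered 2 and 3 and 1.28 to 20.7 FPKM (median 11.5) in those numbered 1 and 5, where LSO replicate 1 alone was below 7.54 FPKM. In the samples numbered 4 EED was 1.25 to 9.44 FPKM. The number of genes above 0.5 FPKM was 6646 to 7527 in the samples numbered 2 and 3 and 7699 to 8452 in those numbered 1 and 5, so it divided in the same way. So did the score on the first principal component, at -66.8 to -27.4 and at -5.43 to 71.7. The share of all genes without overlap between these sets was not computed. The division is therefore not shown to be particular to KDM1A.

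Correlations were also computed within these sets of samples. KDM1A and SETDB1 had r = 0.695 (Spearman 0.691) over the 11 samples numbered 2 and 3 and r = 0.785 (Spearman 0.643) over the 12 numbered 1 and 5. KDM1A and EED had r = 0.028 (Spearman 0.091) and r = 0.149 (Spearman 0.497), lower than the values over all samples. SETDB1 and EED had r = -0.177 (Spearman -0.164) and r = 0.143 (Spearman 0.524). The range of KDM1A is also narrower within a set. KDM1B and SUZ12 had r = 0.545 (Spearman 0.600) and r = 0.544 (Spearman 0.224). EED and EZH2 had r = -0.553 (Spearman -0.118) and r = -0.792 (Spearman -0.580).

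KDM1B divided less by that number. Among the samples numbered 2 and 3 it was 0.468 to 0.892 FPKM (median 0.711) in 5 high fertility and 0.588 to 3.30 FPKM (median 1.15) in 6 low fertility samples. Among those numbered 1 and 5 it was 0.759 to 1.25 FPKM (median 0.980) in 6 high fertility and 0.529 to 2.34 FPKM (median 1.39) in 6 low fertility samples, and among those numbered 4 it was 0.578 to 1.12 and 1.24 to 2.55 FPKM, 3 samples each. In each of the 3 sets the low fertility median was the higher one, and only the samples numbered 4 did not overlap. This was not particular to KDM1B. Among the samples numbered 4, KDM1A also did not overlap, nor did SETDB1 (0.535 to 1.31 and 2.33 to 3.12 FPKM) and SUZ12 (2.33 to 3.50 and 3.64 to 5.77 FPKM), while EED and EZH2 did. The share of all genes without overlap there was not computed. With the number of genes above 0.5 FPKM as a covariate, chosen after seeing the data, the log2 fold change of KDM1B over all stages was again -0.40, and its adjusted p in limma was 0.224.

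**Figure D3:**
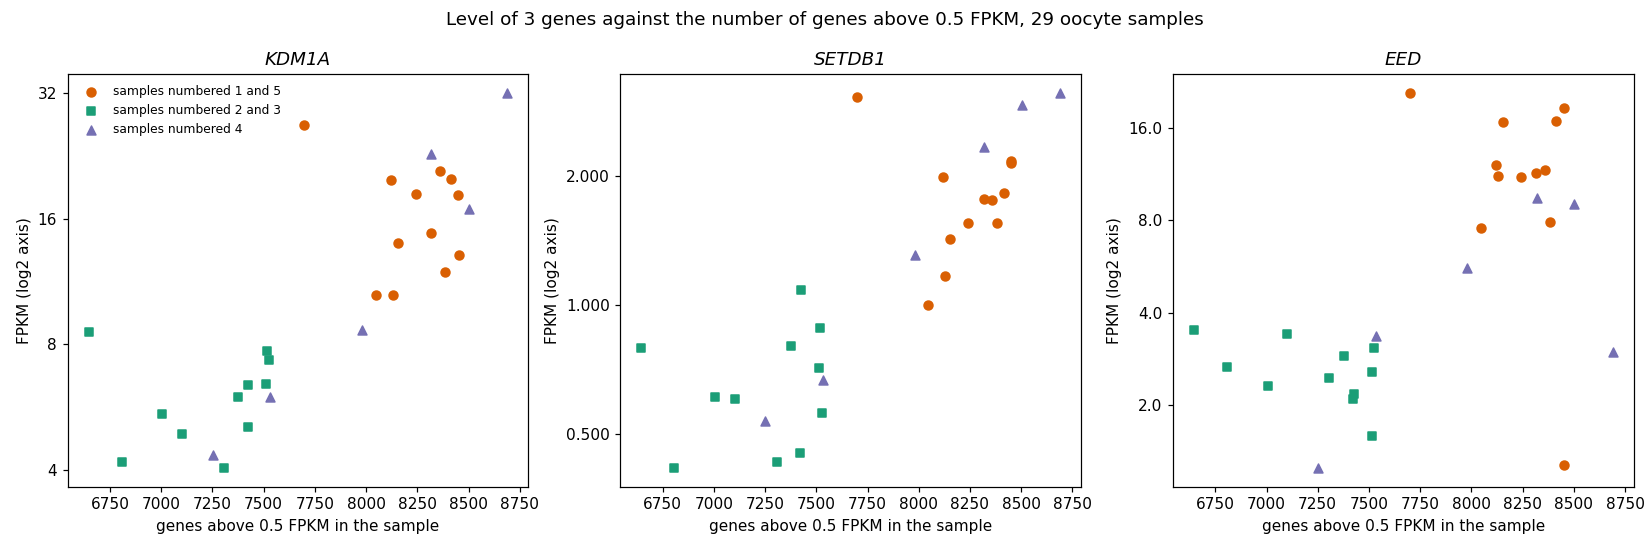
FPKM of KDM1A, SETDB1 and EED on a log2 y axis against the number of genes above 0.5 FPKM in the sample on the x axis, for 29 oocyte samples, with the symbol giving the number in the sample title. Samples numbered 2 and 3 lie at 6646 to 7527 genes and at 8.56 FPKM of KDM1A or less, and samples numbered 1 and 5 at 7699 to 8452 genes and 10.5 FPKM or more.

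For each tested member, the genes of unique symbol with the highest Pearson correlation of log2(FPKM + 1) over the 29 samples are named here. For KDM1A they were CLTC, the clathrin heavy chain (r = 0.950), and PRPSAP2 (r = 0.946), and for SETDB1 HSPA4L, a heat shock protein (r = 0.961), and MATR3, a nuclear matrix protein (r = 0.941). For EED they were TMEM267 (r = 0.969) and RABL3 (r = 0.968), for EZH2 CCDC50 (r = 0.883) and SART1 (r = 0.862), and for SUZ12 CEP57, a centrosomal protein (r = 0.892), and ECT2, a factor of cytokinesis (r = 0.892). For KDM1B they were UBE2Q2, a ubiquitin conjugating enzyme (r = 0.917), and PPFIBP1 (r = 0.904). For EHMT2 they were ICE1 (r = 0.906, Spearman 0.731) and CSNK1G2 (r = 0.877, Spearman 0.709). Over all the genes named here the Spearman values ran from 0.709 for CSNK1G2 to 0.951 for TMEM267.

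The annotation in the table gave the members common terms. The term histone-lysine N-methyltransferase activity was held by 5 members, SETD2, SETDB1, EHMT1, EHMT2 and EZH2, and by 29 genes of the table. The H3K4 demethylation term was held by 3 members, KDM1A, KDM1B and KDM5B, among 5 genes. The pathway of lysine degradation listed 5 members, the same methyltransferases, among 67 genes.

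A wider list of 81 other genes of histone methylation gave the setting, of which 80 symbols matched 96 genes. The 6 with the highest mean FPKM were DPY30 (507), RBBP7 (188), SMYD3 (75.6), RIOX2 (60.2), MTF2 (34.7) and CBX3 (30.4). DPY30 is a core subunit of the H3K4 methyltransferases, RBBP7 a histone chaperone found in PRC2 and MTF2 a PRC2 partner. CBX3 is a reader of H3K9 methylation. RIOX2 was placed among the demethylases when the list was drawn up, and its activity was not examined here. The values of DPY30, SMYD3 and CBX3 are uncertain because 2, 3 and 6 genes of the table carry these symbols. Every one of these 6 had a higher mean than KDM1A. Of relatives of the members, EZH1 averaged 0.808 FPKM against 3.73 for EZH2, and the mean of SUV39H2, another H3K9 methyltransferase, was 9.74 FPKM, from 1 of its 2 genes, against 1.36 for SETDB1. For H3K36, where SETD2 was near 0, NSD3 averaged 4.14, ASH1L 0.813, NSD2 0.263 and NSD1 0.249 FPKM. These relatives were named after their values were seen.

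In the wider list 0 genes passed an adjusted p in limma in any fertility comparison. By the unadjusted p, 4 of 59 passed in large, 4 of 57 in medium and 2 of 56 in small follicles, beside 4.14%, 8.67% and 4.41% of all genes tested. Over all stages 14 of 65 passed, beside 9.99% of all genes, all 14 of them lower in high fertility, where over all genes 639 were lower and 329 higher. The median log2 fold change over all stages was -0.17 in the list, -0.20 in the 7 members and -0.04 over all genes.

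In large follicles WDR5, a core subunit of the H3K4 methyltransferases, was 3.14 to 7.41 FPKM in HLO and 0.250 to 4.60 FPKM in LLO (medians 3.32 and 0.275), a log2 fold change of 1.61 (SE 0.44, adjusted p = 0.828). The PRC2 partner AEBP2 was 9.22 to 20.1 FPKM in HLO and 18.7 to 39.2 FPKM in LLO (medians 11.0 and 33.6), the H4K20 methyltransferase KMT5A 0.189 to 0.678 and 0.373 to 1.59 FPKM, and the H3K36 methyltransferase ASH1L 0.395 to 0.838 and 0.682 to 1.87 FPKM. Their log2 fold changes were -1.13, -0.54 and -0.58, with the same adjusted p of 0.828. The ranges of HLO and LLO overlapped in each of these genes.

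In medium follicles CBX3 (1 of its 6 genes) and PRMT1, an arginine methyltransferase, had log2 fold changes of 0.73 and 0.52, and ASH2L, a subunit of the H3K4 methyltransferases, and KDM2A, an H3K36 demethylase, of -0.90 and -0.77. Their adjusted p in limma were 0.491, 0.571, 0.423 and 0.571. ASH2L was 4.89 to 10.5 FPKM in HMO and 10.6 to 24.5 FPKM in LMO, with no overlap, as held for 1.7% of the genes tested. The groups overlapped for CBX3, PRMT1 and KDM2A. In small follicles SMYD3 (1 of its 3 genes) had 1.31 and NSD3 -0.78, with adjusted p of 0.880 for both. Over all stages ASH1L, KDM4A and KDM7A were the genes of the wider list with the smallest p. Their medians were 0.488, 0.646 and 1.25 FPKM in high and 0.837, 1.20 and 2.67 FPKM in low fertility samples. Their log2 fold changes were -0.37, -0.38 and -0.53 (adjusted p = 0.423 each in limma). KDM1B had that same adjusted p of 0.423, and none of these genes passed the adjustment.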

How the data were processed

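RNA-seq values of 29 oocyte samples were used. The authors enriched mRNA with oligo(dT), filtered the reads for unique matches with fewer than 5 mismatches and dropped picard duplicates. They deposited FPKM per gene, which Cufflinks 2.2.1 computed on Ensembl genes. The aligner and genome build are not given in the sources used here. FPKM are not counts, the numbers of mapped reads were not used here, and no counting interval is given. Each column was matched to the sample of the same title. In addition, 1 further column, by its name an HSO column, matched no sample in use and was not analysed here, so HSO has n = 4. No 2 columns held identical values. The labels give groups as HLO, LLO, HMO, LMO, HSO and LSO.

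Genes that exceeded 0.5 FPKM in 4 or more samples of a comparison were tested on log2(FPKM + 1) with limma 3.58.1 (moderated test with a trend, two-sided) in R 4.3.3, with Benjamini-Hochberg adjustment over all genes tested. Single stages were fitted on their own groups, fertility and stage over all samples with each other as covariate, and the interaction from 6 group means. The scripts were tested on simulated data. Alternatives were pseudocounts of 0.1 and 0.5, no filter, a limit of 1 FPKM, median-of-ratios scaling, quantile normalization, array weights, a replicate block, 1 fit over all samples, an exact Wilcoxon test and each sample left out. The number of genes above 0.5 FPKM as a covariate was added after seeing the data.

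The members and the gene lists were chosen with earlier results of these data known. All members are named, with fold changes for those with an unadjusted p under 0.05 and the ends of each range. Of the wider list the 6 with the highest mean and, in each fertility comparison, up to 3 per direction with the smallest unadjusted p under 0.05 are named, and for each tested member the 2 genes of unique symbol with the highest Pearson correlation. Levels and correlations were computed with pandas 2.3.3, numpy 2.4.6 and scipy 1.17.1 under Python 3.11.15, and plots drawn with matplotlib 3.10.9.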

Additional observations from a re-analysis of the deposited data

Results flagged for a closer look

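In groups of 4 or 5 samples, a sample was singled out where its gap to the nearest other sample was a large share of the range of the group by Dixon's critical value. This held 7 times in 58 groups of values. Chance singles out about 1 in 20 independent groups of normally distributed values, and FPKM near 0 need not be distributed so. As 3 of the 7 came from the same sample, LMO replicate 2, the count cannot be set against that share. LMO replicate 2 was singled out above the other LMO samples in 3 genes. It had 0.229 FPKM of EHMT1 (others 0 to 0.042), 2.22 FPKM of EHMT2 (others 0 to 0.354) and 3.30 FPKM of KDM1B (others 0.529 to 1.27). SETD2 was 0.227 FPKM in LSO replicate 1, where the other LSO samples lay at 0.012 to 0.060. EHMT1 was 0.068 FPKM in HMO replicate 5 (others 0 to 0.017) and 0.017 FPKM in HSO replicate 1, with the other 3 listed at 0. Where all others are listed at 0, any value above 0 is singled out. Whether samples differ at values this low cannot be judged from FPKM. SUZ12 was lowest in HMO replicate 4, at 2.33 FPKM, below 3.43 to 3.66 in the others. No member had groups that moved without overlap in opposite directions at different stages.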

How the results depend on the processing

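The count of members past an adjusted p was 0 in all 6 comparisons under every setting run, except that array weights gave 2 for fertility over all stages. By the unadjusted p, the count of 1 in large follicles became 0 with no filter and 2 with array weights or 1 fit over all samples, and 0 to 1 with a sample left out. The count of 0 in medium follicles became 1 with no filter (KDM5B) and 2 with array weights (KDM1A and EED), and that in small follicles 1 with no filter (EHMT2). Over all stages the count of 1 became 2 with quantile normalization, 5 with array weights, 2 with the number of genes above 0.5 FPKM as a covariate (chosen after seeing the data) and 1 to 2 with a sample left out, where it was 2 only without LMO replicate 3, when SUZ12 joined KDM1B. The same covariate made the count for stage 1 in place of 0. The cause was not tested. KDM1B was lower in high fertility under every setting, with a log2 fold change over all stages of -0.67 to -0.33 and of -0.45 to -0.33 with a sample left out, all with an unadjusted limma p of at most 0.00882. Without LMO replicate 2 it was -0.33.

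Groups share replicate numbers in the titles. The deviations of samples with the same number correlated at -0.05 to 0.52 in large, -0.41 to 0.65 in medium and -0.48 to 0.71 in small follicles, with 10 of 14 pairs over 0.1 and the samples numbered 4 below 0 at each stage. As not every pair was over 0.1, the samples were not treated as paired. For each sample the best correlated sample of the other population was found. It had the same number for 5 of 10 samples in large, 7 of 10 in medium and 3 of 8 in small follicles. The count given by chance was not computed, so this describes the data and not the design. With the replicate block the count of members past an unadjusted p over all stages was 2 (KDM1A and KDM1B) in place of 1, and the block changed no other count of members past a p. Over all genes the number past an adjusted p went from 6 to 127 in medium follicles and from 0 to 70 for the interaction, and 5 members in place of 4 had negative fold changes in small follicles.

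With a sample left out, 0 to 2 members changed place in the order of mean FPKM, and those that did were EZH2 and SUZ12. The median correlation between members, 0.413, was 0.385 by Spearman's rank correlation, 0.458 after removing the group means and 0.201 after quantile normalization. The depth behind each value cannot be read from FPKM, so whether samples differ in SETD2 and EHMT1 cannot be judged.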
